A study of Homo sapiens with 6 samples.

Results

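The genes of major histocompatibility complex (MHC) class I antigen presentation were examined for DNA methylation in H9, a line of human embryonic stem cells, by bisulfite sequencing of the whole genome. The 9 genes were chosen by name, with earlier results of these data known, from 19819 protein-coding genes on chromosomes 1 to 22 and X. They comprise the class I heavy chains HLA-B, HLA-C, HLA-E, HLA-F and HLA-G, the light chain B2M, the peptide transporter subunit TAP1, the immunoproteasome subunit PSMB8 and the coactivator NLRC5. The study compared 3 libraries of conventional cells with 3 libraries of reset cells. Conventional H9 cells were kept with 10 ng/ml bFGF and 20% KSR. Reset cells were derived from H9 cells that carried NANOG and KLF2 transgenes induced with doxycycline, and after its withdrawal they grew with 1 μM PD0325901, 1 μM CHIR99021, human LIF and 5 μM of the protein kinase C inhibitor Gö6983. Both cultures were grown on mouse embryonic fibroblast feeders at 5% oxygen, and the share of feeder DNA in the libraries was not measured here. All 6 libraries come from a single cell line. The paper describes its whole-genome data as from 3 biological replicates, but the labels do not say whether these were separate cultures or separate resettings. The p-values therefore cover only the spread between these libraries, and the spread used for each region was partly drawn from all regions tested.

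Class I molecules display peptides made inside the cell to cytotoxic T cells. The proteasome cuts the peptides, the TAP transporter carries them into the endoplasmic reticulum, and they are loaded there onto a heavy chain paired with B2M. HLA-B and HLA-C are classical heavy chains, which are highly variable between people and broadly expressed, whereas HLA-E, HLA-F and HLA-G are less variable, and HLA-G is best known from trophoblast. Transcription of many, though not all, of these genes depends on NLRC5, which acts through factors bound just upstream of the start (RFX, CREB and NF-Y proteins), and on interferon signalling. Human embryonic stem cells are known for low class I levels at their surface. Methylation of CpG-rich promoters is generally linked to silence, while the bodies of most genes are methylated in conventional cells.

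The level of a region is the percentage of its CpG calls that were methylated, a call being the reading of 1 cytosine in 1 sequencing read. The libraries held between 70329213 and 98004161 calls, or 2.51 to 3.49 calls per CpG, so levels were taken over promoters, gene bodies and 200-bp tiles. Of all calls, 84.3 to 84.6% were methylated in the conventional and 29.5 to 30.3% in the reset libraries. A promoter was taken as the 1000 bp before and the 500 bp after the canonical start in GENCODE, on the GRCh37 build. The member promoters held 43 to 346 calls per library, and HLA-B was covered most thinly, with 43 to 88 calls on 76 CpGs. Because the paper's methods name no step that removed duplicate reads, intervals from call numbers cover counting error only, and the errors given are the SD between libraries. A read can also give calls at several neighbouring CpGs, so upper limits drawn from call numbers are too low where calls share reads.

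Methylation of the member promoters moved in both directions. HLA-C, PSMB8 and NLRC5 were more methylated in reset cells, HLA-E and HLA-F were less methylated, and HLA-B, HLA-G, B2M and TAP1 did not pass the test. Thus 3 of 9 member promoters were called higher, where 3.98% of the 19300 promoters tested were, and 2 of 9 were called lower, where 67.4% of all promoters were (quasi-binomial logistic model with limma, Benjamini-Hochberg adjusted p under 0.05). Since the members were chosen with earlier results of these data known, the counts describe them and are not a test. These counts depended on the start and the window: at the outermost annotated starts 6 of 9 members were lower and 2 higher, against 73.9% and 3.50% of all promoters. In the window of 250 bp before to 50 bp after the start, 0 of 7 members tested were lower (also at an unadjusted p under 0.05) and 1 higher, against 7.44% and 0.696%. The reset libraries all lay above the conventional libraries in 2 member promoters and all below in 2, against 4.63% and 69% of all promoters. The median difference, reset minus conventional, was 0.996 points over the 9 members and -9.59 points over all promoters tested.

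**Figure D1:**
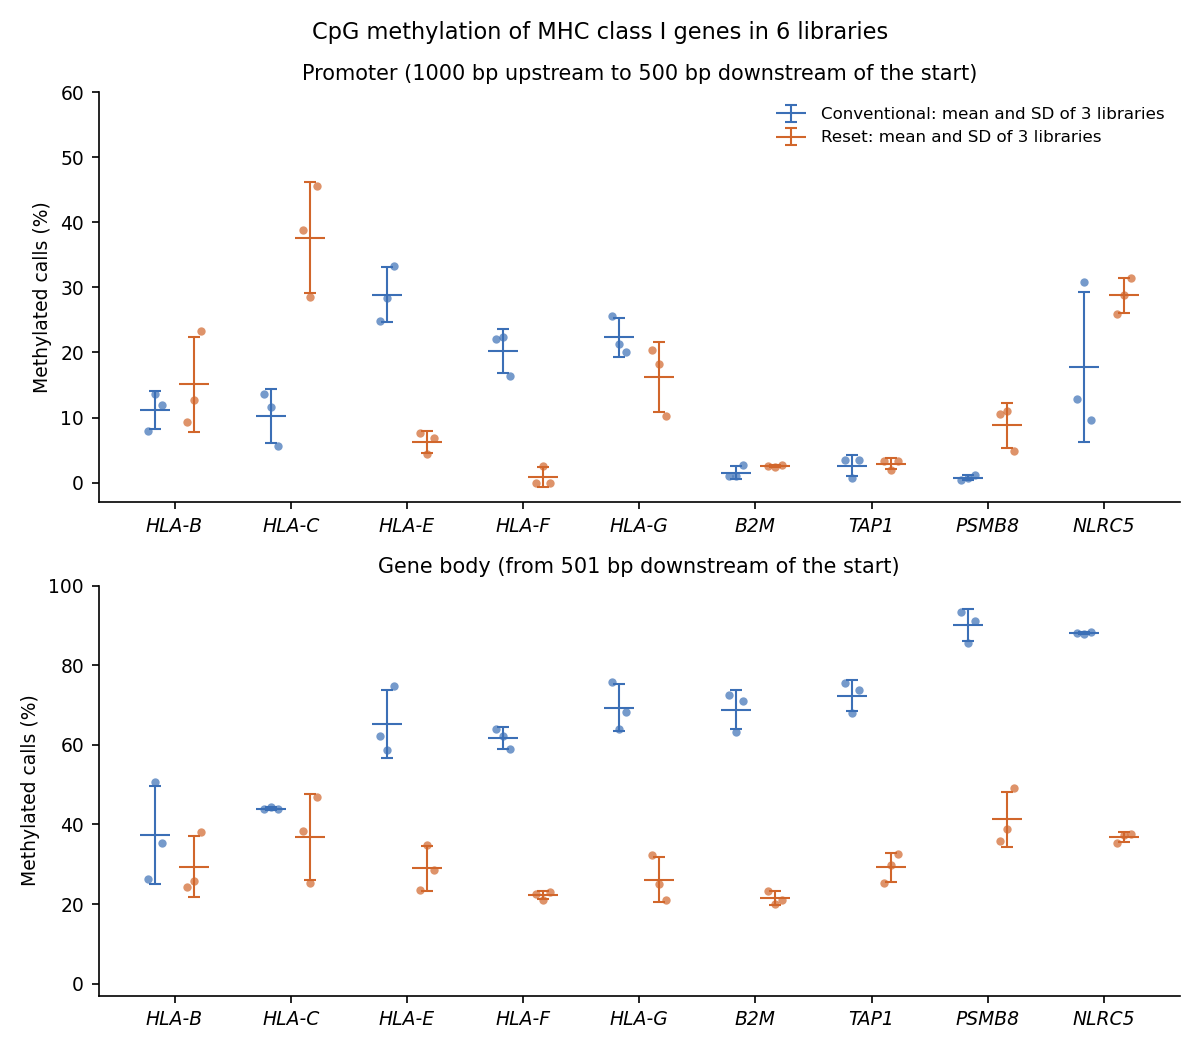
Methylated calls in percent (y axis) for the promoter (top) and body (bottom) of each of the 9 genes, with a dot per library and the mean and SD of the 3 conventional and 3 reset libraries as bars. In the promoters HLA-C and PSMB8 sit higher and HLA-E and HLA-F lower in every reset library, while all bodies apart from HLA-B and HLA-C lie between 58.8 and 93.4% in conventional and between 20.0 and 49.1% in reset libraries.

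HLA-C, which presents peptides and is also a ligand of natural killer cell receptors, had the largest rise of the 9 promoters. It lies on the minus strand, with its promoter at chr6:31239369-31240869. The conventional libraries had 13.6, 11.6 and 5.62% and the reset libraries 38.8, 28.6 and 45.6%. The lowest reset library thus stood well above the highest conventional library. The mean rose from 10.3% ± 4.16 to 37.7% ± 8.58 (SD, n = 3 each), a difference of 27.4 points (adjusted p = 9.97e-05), and of all promoters tested only 84 (0.435%) had a larger rise. Counting plus-strand calls alone gave 21.5 points, which did not pass the threshold (adjusted p = 0.0685).

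The rise of HLA-C lay over the CpG-dense start. In the 400 bp upstream of the start the conventional libraries had 0, 2.78 and 3.33% and the reset libraries 11.8, 15 and 41.2%. Within 600 bp downstream, over 60 CpGs, they had 3.33, 0 and 0% against 28.3, 29.9 and 50%. From 250 bp upstream to 50 bp after the start they had 0% each against 36.4, 22 and 56.5% (adjusted p = 0.045). The reset levels rest on 17, 40 and 17 calls in the 400 bp upstream, on 46, 77 and 72 in the 600 bp downstream, and on 22, 50 and 23 from 250 bp upstream to 50 bp after the start. In these stretches the groups did not overlap. Further out the order turned: from 2000 to 1000 bp upstream the level was 70.2% ± 3.79 in conventional and 25% ± 4.22 in reset libraries, and from 1000 to 2000 bp downstream 73.3% ± 8.82 and 44.5% ± 4.85. Of the tiles, that from 200 to 400 bp downstream (176 of its bases in exon 2 of 8) rose from 1.33% ± 2.31 to 38.6% ± 5.92 (adjusted p = 0.0112). The tile from 600 to 800 bp rose from 0.877% ± 1.52 to 28.9% ± 19.6 (adjusted p = 0.0338), with 43.8, 6.67 and 36.4% in the reset libraries. The first call was lost without conventional replicate 2 (36.6 points, adjusted p = 0.0648), and the second without any one library other than reset replicate 2 (20.6 to 28.9 points, adjusted p = 0.0852 to 0.164).

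The sequence upstream of HLA-C is shown because its CpGs went from no methylated call to a partial level, beside that of HLA-B, its nearest relative here. Both are read 5′ to 3′ on the gene's strand from GRCh37, beginning 250 bases before the canonical start and ending before the first annotated UTR base, with CpGs in capitals. HLA-C lies at chr6:31239883-31240119 and HLA-B at chr6:31325071-31325206.
HLA-C: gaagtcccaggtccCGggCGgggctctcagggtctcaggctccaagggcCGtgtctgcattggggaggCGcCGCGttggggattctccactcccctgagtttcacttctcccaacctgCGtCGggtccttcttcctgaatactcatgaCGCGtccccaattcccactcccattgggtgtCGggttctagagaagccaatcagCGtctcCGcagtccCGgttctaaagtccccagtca
HLA-B: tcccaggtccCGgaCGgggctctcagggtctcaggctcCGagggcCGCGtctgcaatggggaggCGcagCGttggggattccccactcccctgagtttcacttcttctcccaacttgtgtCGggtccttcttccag
In the HLA-C stretch, none of 88 conventional calls was methylated, which allows a level of up to 3.41% if each call is taken as independent. Calls on the same read are not, so the true limit is higher. In reset cells 12 of 60 calls were methylated (20.0%), with 7.69, 17.6 and 38.5% in the 3 libraries. In the HLA-B stretch none of 36 conventional calls was methylated and 5 of 18 reset calls were, all 5 of them in reset replicate 2, since reset replicate 1 had no call there and replicate 3 had 2. HLA-B thus had too few calls for a comparison in this stretch. Over the 250 bases upstream of the starts, HLA-B and HLA-C were identical at 89.0% of aligned positions, the highest value of the 10 pairs of HLA genes.

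HLA-B, the other classical member (minus strand, promoter at chr6:31324456-31325956), had promoter levels of 7.95, 13.6 and 11.9% in conventional and 9.26, 12.7 and 23.3% in reset libraries. The groups overlapped, and the means of 11.2% ± 2.91 and 15.1% ± 7.29 (SD, n = 3 each) gave a difference of 3.93 points that did not pass the test (adjusted p = 0.439). At the outermost annotated start of the gene the direction turned and passed (-13.3 points, adjusted p = 0.00586), and without reset replicate 3 the difference was -0.159 points (adjusted p = 0.922). Within 600 bp downstream of the start, on 24 to 102 calls per library, the conventional libraries had 1.96, 0 and 0% and the reset libraries 0, 0 and 3.57%. The reset calls covered different parts of this stretch: its first 200 bp had calls in reset replicate 3 only, and the next 200 bp in reset replicates 1 and 2 only. In the 400 bp upstream, where reset replicates 1 and 3 had 6 and 5 calls, the levels were 6.45, 0 and 4.55% against 0, 20.7 and 20%. Only 3 of its 20 tiles reached 10 calls in every library. From 2000 to 1000 bp upstream, with at least 10 calls per library, the level was 66.4% ± 7.73 in conventional and 20.5% ± 9.24 in reset libraries.

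HLA-E, the ligand of the NKG2A receptor on natural killer cells, fell (plus strand, promoter at chr6:30456286-30457786). Its conventional libraries had 24.8, 28.4 and 33.3% and its reset libraries 7.61, 4.33 and 6.84%, with no overlap. The mean fell from 28.9% ± 4.26 to 6.26% ± 1.71 (SD, n = 3 each), by 22.6 points (adjusted p = 3.2e-06). The difference lay upstream of the CpG-dense start. From 1000 to 400 bp upstream the level was 90.3% ± 3.26 in conventional and 30.2% ± 4.37 in reset libraries, and the tile from 400 to 200 bp upstream fell from 43.7% ± 7.75 to 2.59% ± 2.34 (adjusted p = 0.0106). Within 600 bp downstream both were near 0, with 0.803% ± 1.39 and 0.498% ± 0.862. With the window shortened to 250 bp upstream and 50 bp downstream the difference was 0.441 points (adjusted p = 1).

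HLA-F (plus strand, promoter at chr6:29690211-29691711) fell in the same stretch. Its conventional libraries had 22.1, 22.3 and 16.3% and its reset libraries 0, 2.60 and 0%. The zeros rest on 157 and 94 calls and allow levels of up to 1.91 and 3.19% if each call is taken as independent. The mean fell from 20.2% ± 3.39 to 0.866% ± 1.5 (SD, n = 3 each), by 19.4 points (adjusted p = 1.37e-05). In the shortened window the difference was -2.30 points and did not pass the threshold (adjusted p = 0.582). In the 400 bp upstream the conventional libraries had 6.52, 33.3 and 32.4%, and none of 103 reset calls was methylated (up to 2.91%). The flanks were also low in reset cells: 18.1% ± 7.38 from 2000 to 1000 bp upstream and 11.4% ± 2.69 from 1000 to 2000 bp downstream, where conventional libraries had 92.5% ± 1.05 and 74.2% ± 6.42.

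HLA-G (plus strand, promoter at chr6:29794602-29796102) had 25.7, 21.3 and 20.0% in conventional and 20.4, 18.2 and 10.2% in reset libraries. The groups overlapped and the difference of -6.04 points did not pass the test (adjusted p = 0.0867). It passed without reset replicate 1 (-8.11 points, adjusted p = 0.0462) and at the outermost annotated start of the gene (-39.3 points, adjusted p = 0.00103). Its stretches went different ways. From 1000 to 400 bp upstream the level was 75.5% ± 16.5 in conventional and 33.8% ± 14 in reset libraries, and from 600 to 1000 bp downstream 55.4% ± 6.72 and 15.3% ± 2.27. Between them, in the 400 bp upstream, it was 21.5% ± 3.80 and 28.3% ± 8.76, with overlap. The tile from 800 to 1000 bp downstream, 194 of its bases in exon 3 of 7, fell from 69.8% ± 8.34 to 23% ± 6.43 (adjusted p = 0.00978).

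The stretches upstream of HLA-E and HLA-G, on the plus strand at chr6:30457036-30457285 and chr6:29795352-29795601, are given with CpGs in capitals because they hold like numbers of CpGs and differed in level.
HLA-E: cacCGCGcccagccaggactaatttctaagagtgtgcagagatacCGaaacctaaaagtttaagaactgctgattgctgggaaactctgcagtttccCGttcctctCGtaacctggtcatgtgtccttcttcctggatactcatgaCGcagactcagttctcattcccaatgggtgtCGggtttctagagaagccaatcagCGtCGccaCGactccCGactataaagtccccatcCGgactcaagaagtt
HLA-G: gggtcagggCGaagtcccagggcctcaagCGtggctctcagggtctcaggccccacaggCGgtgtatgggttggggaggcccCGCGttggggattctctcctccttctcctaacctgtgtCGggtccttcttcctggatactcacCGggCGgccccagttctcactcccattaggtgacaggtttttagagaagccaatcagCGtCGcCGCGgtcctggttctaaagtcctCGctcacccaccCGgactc
Over the 12 CpGs of HLA-E, 1 of 145 conventional and 1 of 92 reset calls was methylated. Over the 14 CpGs of HLA-G 15.7% of conventional calls were methylated, and 19 of 82 (23.2%) reset calls, with 30.4, 20 and 20.6% in the 3 reset libraries. Within the 250 bases upstream of the start, HLA-G was thus the only one of the 5 HLA genes with methylated calls in all 3 conventional libraries. Its conventional levels there were 16.0, 17.6 and 14.3%, all below the reset libraries. From 250 bp upstream to 50 bp downstream the reset libraries also all lay above, by 6.66 points, which did not pass the test (adjusted p = 0.632). HLA-E was the least like the other heavy chains in sequence here, with an identity of 62.5 to 65.5% to the other HLA genes.

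The classical genes and HLA-E, HLA-F and HLA-G were then set against each other within each library. The mean promoter level of HLA-B and HLA-C was 10.8, 12.6 and 8.74% in conventional and 24.0, 20.6 and 34.4% in reset libraries. For HLA-E, HLA-F and HLA-G it was 24.2, 24.0 and 23.2% and then 9.34, 8.37 and 5.69%. The classical mean was thus lower in all 3 conventional libraries, by 13.1 points ± 1.58, and higher in all 3 reset libraries, by 18.6 points ± 8.91 (SD, n = 3 each). No test was made of this difference of means over so few chosen genes. The reset difference rested mostly on HLA-C: without HLA-C it was 7.28 points and without HLA-B 29.9 points. HLA-B alone, at 9.26, 12.7 and 23.3% in the reset libraries, was not above the mean of HLA-E, HLA-F and HLA-G in reset replicate 1. It lay below HLA-G (20.4, 18.2 and 10.2%) in reset replicates 1 and 2. The conventional difference was smaller in shorter windows, -8.26 points with 500 bp upstream and -5.38 points from 250 bp upstream to 50 bp downstream, where HLA-B and HLA-C were both at 0% in conventional libraries and HLA-G at 11.4, 14.3 and 13.4%. In the bodies the classical genes were also lower in conventional libraries, by 24.7 points ± 9.38, but in reset libraries the difference ranged from -1.36 to 18.3 points.

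**Figure D2:**
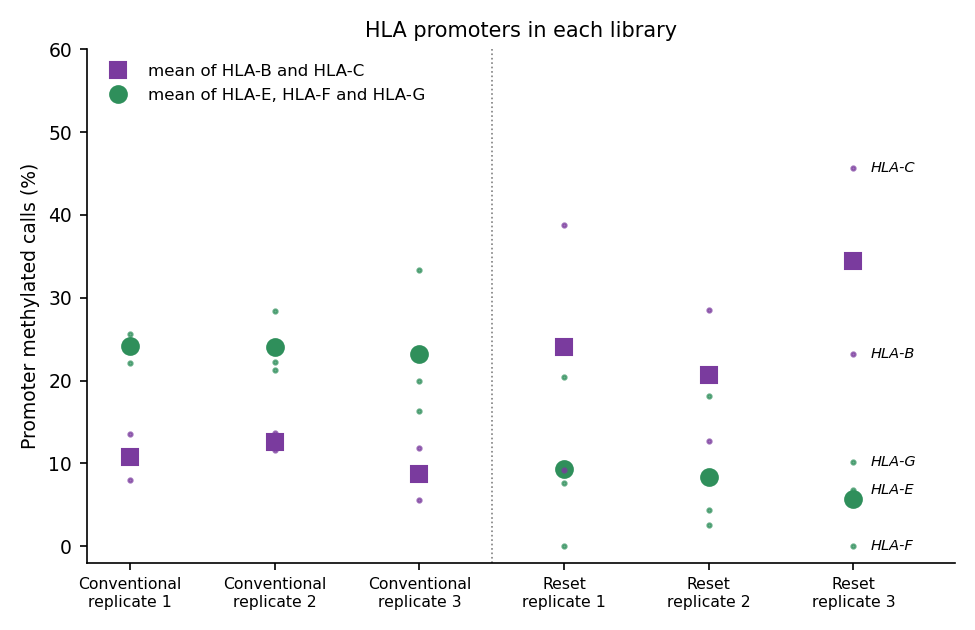
Promoter methylation in percent (y axis) in each of the 6 libraries (x axis), with squares for the mean of HLA-B and HLA-C, circles for the mean of HLA-E, HLA-F and HLA-G, and small dots for the single genes. The squares lie below the circles in the 3 conventional libraries and above them in the 3 reset libraries, where HLA-C is the highest gene.

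The promoters of B2M and TAP1 had low levels in both groups. B2M on chromosome 15, the invariant light chain without which heavy chains do not reach the surface, had 0.995, 0.985 and 2.66% in conventional and 2.48, 2.38 and 2.76% in reset libraries (plus strand, promoter at chr15:45002715-45004215, adjusted p = 0.364). TAP1, a subunit of the peptide transporter, had 3.47, 0.746 and 3.53% and 3.36, 1.92 and 3.38% (minus strand, promoter at chr6:32820981-32822481, adjusted p = 0.891). Both pairs of groups overlapped, and no level exceeded 3.53%. Within 600 bp downstream of TAP1, however, the conventional libraries had 0, 0.862 and 1.43% and the reset libraries 3.37, 6.52 and 6.78%, with no overlap. Its tile from 400 to 600 bp downstream had 1.27% ± 1.18 and 9.74% ± 3.65, which did not pass the test (adjusted p = 0.0848). At its outermost annotated start B2M passed as lower (-5.56 points, adjusted p = 0.0177). The window of TAP1 also holds the start of PSMB9, which reads the other way, so the pair shares nearly all calls. The flanks of both genes were methylated in conventional and less so in reset cells, for example 86.2% ± 1.17 and 24.3% ± 0.815 from 2000 to 1000 bp upstream of TAP1.

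PSMB8, the inducible proteasome subunit that shapes peptides for class I, rose from a promoter that was almost free of methylation (minus strand, chr6:32811324-32812824). The conventional libraries had 0.400, 0.746 and 1.18% and the reset libraries 10.6, 11.0 and 4.81%. Every reset library stood above every conventional one, and the mean rose from 0.776% ± 0.391 to 8.80% ± 3.46 (SD, n = 3 each), by 8.02 points (adjusted p = 9.07e-05). It was 7.49 points in the window shortened to 250 bp upstream and 50 bp downstream (adjusted p = 0.243) and 2.75 points over plus-strand calls alone (adjusted p = 0.0871). The tile from 200 to 400 bp downstream, outside the exons of the canonical transcript, rose from 2.22% ± 3.85 to 22.8% ± 7.37 (adjusted p = 0.0423), with 23.8, 29.6 and 15% in the reset libraries, but did not pass when any one library was left out (17.2 to 24.5 points, adjusted p = 0.0675 to 0.135). Over the whole 600 bp downstream of the start the groups overlapped, with 14.1, 7.14 and 13.8% in conventional and 23.1, 27.6 and 12.5% in reset libraries. From 1000 to 2000 bp downstream the levels were 89.0% ± 3.70 and 43.4% ± 10.8, the reset libraries there being all below. The outermost annotated start of PSMB8 gave the opposite direction, -9.26 points (adjusted p = 0.00407).

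NLRC5 on chromosome 16, the coactivator of class I transcription, rose with an unequal spread (plus strand, promoter at chr16:57022469-57023969). The conventional libraries had 12.8, 30.9 and 9.55% and the reset libraries 26, 28.8 and 31.4%, so conventional replicate 2 overlapped the reset group. That library had 68 calls in the window, against 105 to 208 in the others, and none in the stretch around the start from 250 bp upstream to 50 bp downstream. The mean rose from 17.7% ± 11.5 to 28.7% ± 2.73 (SD, n = 3 each), by 11.0 points (adjusted p = 0.0126). Without conventional replicate 2 the difference was 17.6 points (adjusted p = 0.000523), without replicate 1 it was 8.53 (adjusted p = 0.059) and without replicate 3 it was 6.90 (adjusted p = 0.0868). Over minus-strand calls alone it was -2.16 points (adjusted p = 0.856).

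Close to the NLRC5 start, where conventional replicate 2 had no call, the other libraries stood apart. From 250 bp upstream to 50 bp downstream conventional replicates 1 and 3 had 1.30 and 0% on 77 and 66 calls, and the reset libraries 22.9, 15.6 and 27.3%. Within 600 bp downstream the groups overlapped, with 10, 21.3 and 17.2% in conventional and 29.5, 31.8 and 10.9% in reset libraries. The tile over the first 200 bp downstream, which holds the 61 bases of exon 1, rose from 0% in all 3 conventional libraries to 24.3, 25 and 0% in the reset libraries (adjusted p = 0.015), reset replicate 3 having 17 calls there. This call was lost without any one library other than reset replicate 3 (12.2 to 16.4 points, adjusted p = 0.053 to 0.0757).

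The profile over 20 tiles from 2 kb upstream to 2 kb downstream placed the differences. Of the 180 tiles of the 9 genes, 58 had at least 10 calls in every library. Of these, 15 were called lower and 4 higher in reset cells, against 28.7% and 1.63% of the 115935 tiles tested around all coding starts. The 4 higher tiles were those of HLA-C, PSMB8 and NLRC5 described above, and all lay between the start and 800 bp downstream. Of the 15 lower tiles 14 lay at least 800 bp from the start, in the methylated flanks of HLA-F, HLA-G, B2M, TAP1, PSMB8 and NLRC5, and 1 lay just upstream of HLA-E. For example the tile from 1000 to 1200 bp downstream of B2M fell from 65.2% ± 8.51 to 5.57% ± 3.23 (adjusted p = 0.00718). In a fit with the replicate number as a block no tile passed, of the members or of all genes. At an unadjusted p under 0.05, 16 of the 58 member tiles were lower and 5 higher in that fit. Of the 115935 tiles around all coding starts, 34497 were lower and 2384 higher at that threshold, so the lower share of the members was near the background. With at least 20 calls required, fewer tiles were tested and no member tile was called higher.

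**Figure D3:**
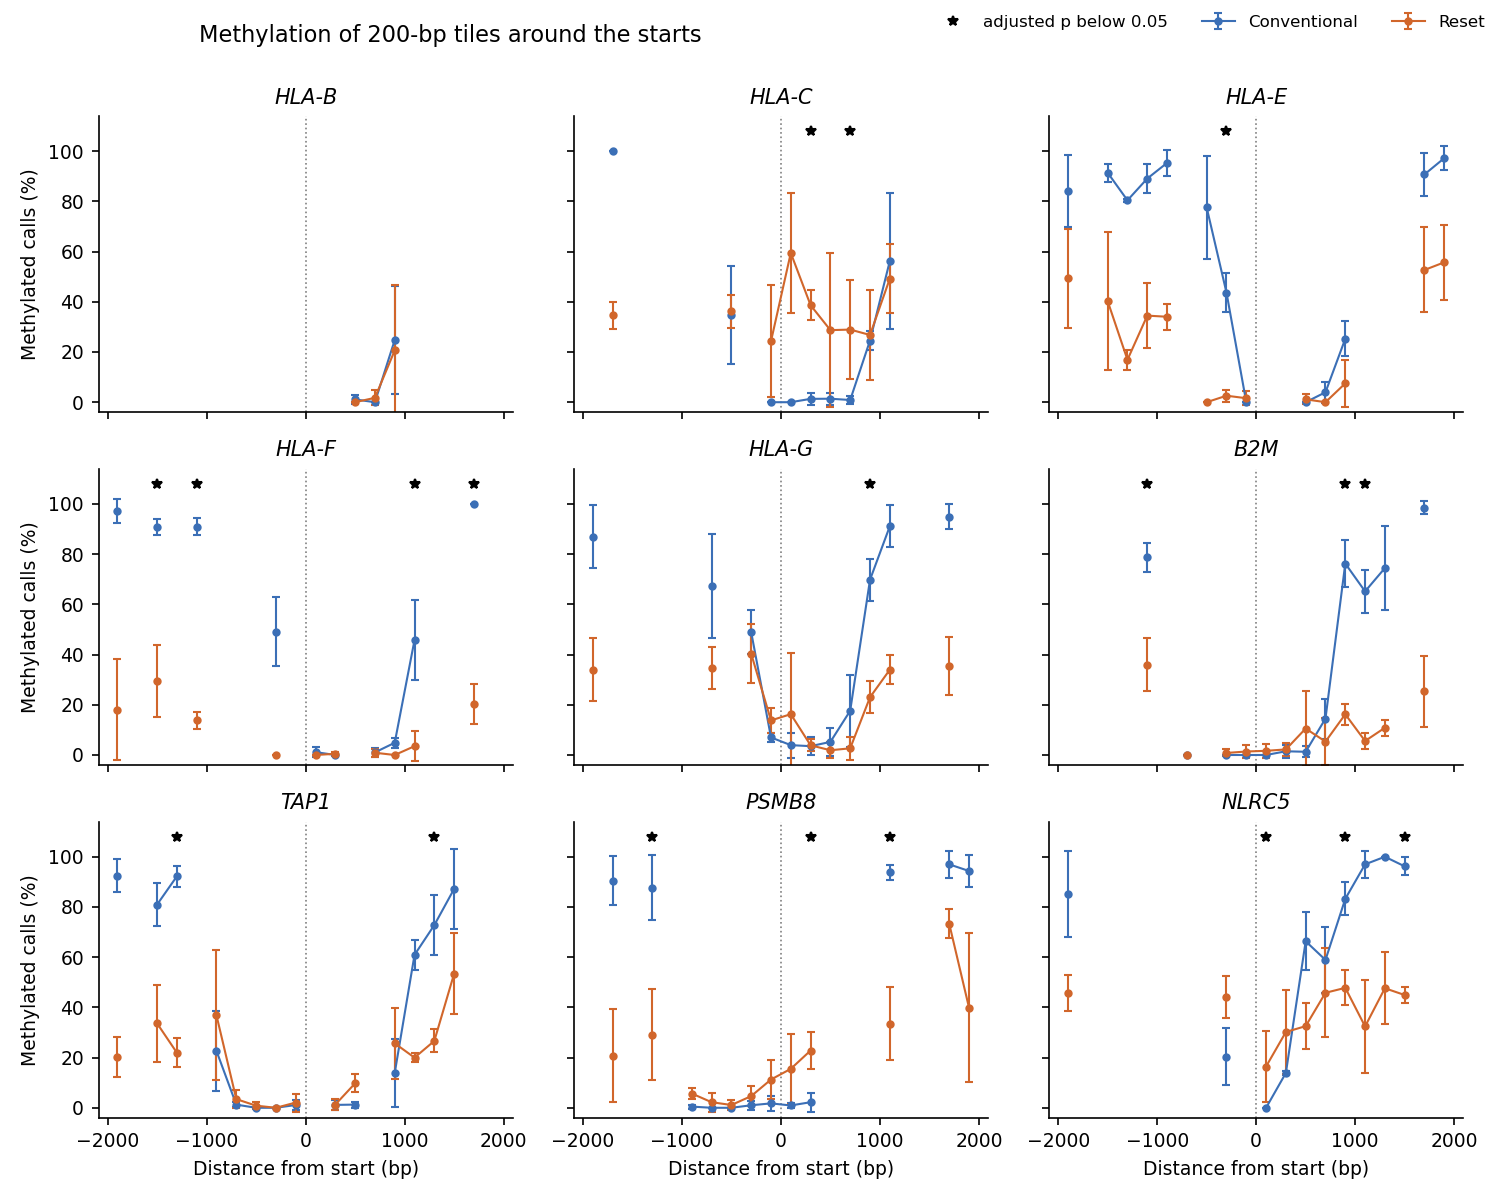
Methylated calls in percent (y axis) in 200-bp tiles by distance from the start in bp (x axis) for the 9 genes, as mean and SD of 3 conventional or 3 reset libraries, shown where every library had at least 5 calls and joined only between adjacent tiles. Stars mark tiles with an adjusted p below 0.05. HLA-C, PSMB8 and NLRC5 rise near the start, while the flanks lie lower in reset libraries.

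Single CpGs of the promoters were read where both groups had at least 5 calls over their 3 libraries. In HLA-C this held for 22 of 76 CpGs, of which 13 were under 10% in conventional cells, and 12 of these 13 were at 20% or more in reset cells. They lay from 42 bp upstream to 492 bp downstream, with a median reset level of 40% and a maximum of 71.4%. In NLRC5 14 of 35 such CpGs reached 20% and in PSMB8 15 of 62, where 3.59% of the 504006 such CpGs in all coding promoters did. At 5 calls a single methylated call already gives 20%. In HLA-E none of 33 did, in HLA-F 1 of 27, in HLA-G 2 of 18, in B2M 2 of 50 and in TAP1 none of 60. HLA-B had 2 such CpGs, neither of which reached 20%. The level in HLA-C was thus partial over the CpGs with enough calls, whereas in HLA-E 32 CpGs stayed under 10% in both groups. Neighbouring CpGs can be read by the same few molecules, so these counts are not of independent sites. Of the CpGs at 50% or more in conventional cells, those under 20% in reset cells numbered 7 of 18 in HLA-E, 6 of 6 in HLA-F, 1 of 8 in HLA-G, 1 of 5 in NLRC5, 0 of 2 in HLA-C and 0 of 1 in HLA-B, against 43.9% over all coding promoters.

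The gene bodies, from beyond 500 bp after the canonical start to the annotated end of the gene, behaved otherwise. Bodies were lower in reset cells in 7 of 9 members, against 97.8% of the 19182 bodies tested, and 0 of 9 were higher, against 1.11% (same test with limma; none was higher at an unadjusted p under 0.05 either). NLRC5, with 1172 CpGs in its body, fell from 88.1% ± 0.273 to 36.8% ± 1.22 (SD, n = 3 each, adjusted p = 1.4e-25). Its body thus lost methylation while its promoter was called higher, a call that was lost without conventional replicate 1 or 3. PSMB8 also had a lower body beside a higher promoter, the body falling from 90% ± 4 to 41.3% ± 6.94 (adjusted p = 1.21e-10). The bodies of HLA-E, HLA-F, HLA-G, B2M and TAP1 had conventional means of 61.7 to 72.3% and reset means of 21.5 to 29.2%.

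Both bodies that did not pass were those of the classical genes. HLA-B had 26.3, 50.6 and 35.3% in conventional and 24.2, 25.9 and 38.1% in reset libraries (adjusted p = 0.27). HLA-C had 43.9, 44.3 and 43.8% and 38.3, 25.3 and 46.9% (adjusted p = 0.0808), reset replicate 3 being above and the others below the conventional libraries. Each passed when 1 library was left out: HLA-B without conventional replicate 1 (-13.6 points, adjusted p = 0.0245) and HLA-C without reset replicate 3 (-12.2 points, adjusted p = 0.0249). Over the whole gene HLA-B passed (-23.3 points, adjusted p = 6.8e-06), while for HLA-C the direction turned (6.04 points against -7.13 for the body, adjusted p = 0.242). The median body difference was -43.1 points over the members and -51.2 over all bodies.

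In a wider view, 1-kb windows to 10 kb on both sides of each start were compared as levels with no test. Of the windows with at least 10 calls per library, the reset libraries all lay below the conventional ones in 17 of 19 for HLA-C, 16 of 19 for HLA-B, 17 of 19 for NLRC5, 16 of 20 for PSMB8, 17 of 20 for TAP1, 14 of 15 for B2M, 17 of 18 for HLA-G, 20 of 20 for HLA-E and 13 of 13 for HLA-F. In all this was 147 of 163 windows, some of them shared by TAP1 and PSMB8, where 92.1% of the 342851 such windows around all coding starts lay below, so the counts are near the background. The reset libraries all lay above in 5 of the 163, against 1.7% of all windows. The only window around HLA-C in which they all lay above was the first kb downstream of the start, at 7.58% ± 1.24 in conventional and 33.1% ± 13.2 in reset libraries. In HLA-B the first kb upstream had 16% ± 1.31 and 29.5% ± 15.5, with 21.7, 19.4 and 47.4% in the reset libraries.

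Promoters of a like starting level give the background for these values. Among 3863 promoters with a conventional level of 15 to 35%, 85.5% were called lower and the median difference was -14.7 points. HLA-E (-22.6 points) and HLA-F (-19.4 points) lay on the side of the larger falls, HLA-G (-6.04 points) on that of the smaller falls, and NLRC5 (11.0 points) moved the other way. Among 9512 promoters under 15% in conventional cells, 41.1% were called lower and 7.18% higher, with a median of -1.75 points and a 95th percentile of 5.18 points. HLA-C (27.4) and PSMB8 (8.02) lay above that percentile, and HLA-B (3.93), B2M (0.996) and TAP1 (0.304) below it. Of the 120 other coding promoters tested on chromosome 6 between HLA-F and TAP1, 73.3% were called lower, with a median of -16.8 points. The promoters nearest to HLA-E over the 6 library levels were C12orf76 and LAMTOR3, at Euclidean distances of 3.59 and 4.22 points.

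The CRE core, the CCAAT box (bound by NF-Y), the core of the interferon-stimulated response element and the NF-kappa-B site were searched in the 250 bases upstream of each start on both strands, where a match is a description and not a bound site. The CRE core TGACG, which holds a CpG, matched in HLA-B, HLA-C, HLA-E and B2M, and in 25.4% of all 19819 coding promoters of that length. In HLA-C it began 105 bases and in HLA-E 107 bases before the start. Its CpG had no methylated call in HLA-C (9 conventional and 3 reset calls), HLA-E (12 and 7) or B2M (12 and 7), and in HLA-B 4 conventional and no reset calls. The CCAAT box matched in HLA-B, HLA-C, HLA-E, HLA-F, HLA-G, B2M and TAP1, and in 34.2% of all promoters. The core of the interferon-stimulated response element (GAAA, 2 bases of any kind, GAAA) matched in HLA-F, B2M and TAP1, and in 2.85% of all promoters. The NF-kappa-B site matched in HLA-B, HLA-C, HLA-G, B2M and TAP1, and in 11.3%. In PSMB8 and NLRC5 none of these letters was found in this window.

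The other genes of the pathway were followed from a list of 27. Of their promoters 13 were called lower and 1 higher, and 13 did not pass, with a median difference of -4.25 points, where 67.4% of all promoters were lower and 3.98% higher. All 27 bodies were lower, with a median difference of -53.6 points, where 97.8% of all bodies were. Of the 12 genes that supply and load peptides, 6 were lower (TAP2, PSME1, ERAP1, ERAP2, CANX and PDIA3) and 1 higher (TAPBPL). Of the 8 genes for promoter-binding factors, with the class II coactivator, 4 were lower (RFXAP, RFXANK, NFYC and CIITA). Of the interferon response genes, IFNGR1 and JAK1 were lower. With the promoter cut to 500 bp upstream, TAP2 (-7.35 points), ERAP2 (-64.9) and CIITA (-33.9) still passed and the other calls of the list were lost. In that window 39.6% of all promoters were lower and 4.40% higher.

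The largest fall of the list was that of ERAP2, which trims peptides in the endoplasmic reticulum, with 95.3, 85.3 and 78.0% in conventional and 26.7, 14.6 and 18.4% in reset libraries (adjusted p = 5.4e-06). CIITA, the coactivator of MHC class II genes, fell from 77.1% ± 4.61 to 33.8% ± 5.18 (adjusted p = 9.25e-06). PDIA3, a thiol oxidoreductase of the loading complex, fell from 22.8% ± 13.9 to 1.36% ± 0.907 (adjusted p = 0.000119), and with 500 bp upstream the difference was -0.882 points (adjusted p = 0.124). TAPBPL, a peptide editor related to tapasin, was the only one of the 27 called higher, with 25, 23.8 and 21.1% in conventional and 35.2, 40.8 and 55.2% in reset libraries (adjusted p = 0.00271). Its rise was 9.92 points and not past the threshold with 500 bp upstream (adjusted p = 0.163). CIITA and TAPBPL alone kept a reset promoter level of 20% or more.

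**Figure D4:**
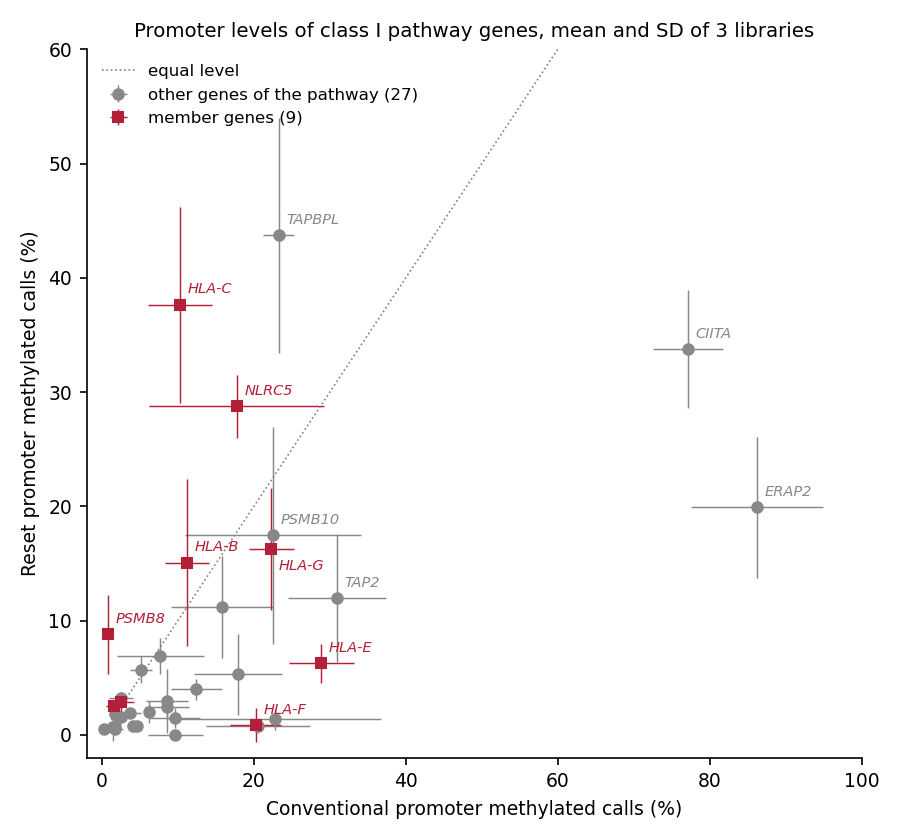
Promoter methylation in percent in reset (y axis) against conventional cells (x axis) for the 9 member genes (squares) and 27 other genes of the pathway (circles), as mean and SD of 3 libraries, with a dotted line at equal levels. HLA-C, NLRC5 and TAPBPL stand above the line at reset levels of 28.7 to 43.7%, and CIITA and ERAP2 far below it.

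In the 1 Mb around each member start, calls per CpG relative to the library mean differed by a factor of 1.02 to 1.11, reset over conventional. In the promoters themselves, mean calls per CpG went from 2.09 in conventional to 2.74 in reset libraries for HLA-E. They went from 1.77 to 1.90 for HLA-F and from 1.85 to 2.35 for NLRC5. In the other members they fell, for example from 3.03 to 2.08 for TAP1, from 1.79 to 1.32 for HLA-C and from 0.838 to 0.667 for HLA-B. Calls were placed on the reference sequence, while H9 carries its own HLA alleles, and reads of one HLA gene may be lost or placed at another. The part of this in the levels of HLA-B and HLA-C was not tested.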

How the data were processed

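Whole-genome bisulfite libraries of 3 conventional and 3 reset H9 samples were used. The authors ligated methylated adapters, treated the DNA with bisulfite and amplified for 11 cycles. The submitters' processing notes name Trim Galore, Bowtie2 and Bismark 0.9.0 with GRCh37, while the paper's methods name another Bismark version. Each deposited file gives, per CpG cytosine, the counts of methylated and of unmethylated calls, without normalization. Positions count from 0 (99.8% lay at a CpG), and printed coordinates count from 1.

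Calls of both strands were summed over promoters, bodies and 200-bp tiles of protein-coding genes (GENCODE 44 on GRCh37). A feature was tested when each library had 10 or more calls in it, by a quasi-binomial logistic model, a likelihood-ratio F test and a dispersion squeezed in limma 3.58.1 and kept at 1 or more. P-values were adjusted over all features tested (Benjamini-Hochberg, threshold 0.05). The paper's methods name no test for single promoters. An exact permutation test of 3 against 3 libraries cannot go below p = 0.1, so none was run. Replicate pairs of a group differed by more than counting error (mean chi-square per degree of freedom 1.67 to 2.45). The script was tested on simulated data.

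All 9 members and 27 pathway genes were to be described, with values for the 3 largest falls and rises past the threshold and for reset levels of at least 20%, and the 2 promoters nearest to any member that fell by at least 20 points. The members and lists were chosen with earlier results of these data known. A pathway gene and an upstream sequence are not reported here.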

Additional observations from a re-analysis of the deposited data

How the results depend on the processing

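Among the member promoters, 2 were lower and 3 higher with at least 5 calls (all promoters 67.6% and 3.96%) or 20 calls (66.3% and 4.08%). The same counts held without highly covered CpGs (67.4% and 3.99%) and with 500 bp upstream (39.6% and 4.40%). With 250 bp upstream and 50 bp downstream 0 were lower (quasi-binomial test with limma, 0 of 7 also at an unadjusted p under 0.05) and 1 higher (all promoters 7.44% and 0.696%), at the start of the gene 6 and 2 (73.9% and 3.50%), with plus-strand calls 2 and 1 (53.6% and 2.62%), and with minus-strand calls 2 and 2 (53.6% and 2.80%). Leaving out 1 library gave 2 to 3 lower and 2 to 3 higher (all promoters 63.4 to 65.5% and 3.36 to 3.72%). With the replicate block the calls were 2 and 2 (all promoters 65.9% and 3.63%), NLRC5 no longer passing (adjusted p = 0.0775). The labels share replicate numbers between the groups, but same-numbered libraries did not deviate together (correlations of 0.00724, 0.0114 and 0.00937). Pooling the calls of a group for Fisher's exact test covers counting error only and ignores the spread between libraries. Fisher's test gave 3 lower, with HLA-G (adjusted p = 0.0113), and 3 higher, against 72.5% and 5.52% of all promoters. In the quasi-binomial test HLA-G passed without reset replicate 1 (-8.11 points, adjusted p = 0.0462) and at the start of the gene (-39.3, adjusted p = 0.00103).

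Directions turned for HLA-B without reset replicate 3 (-0.159 points, up to 6.84 without another library), at the start of the gene (-13.3, adjusted p = 0.00586) and on the minus strand (-2.99), for HLA-E in the 250-bp window (0.441), for HLA-G in the 500-bp (0.467) and 250-bp (6.66) windows, for B2M at the start of the gene (-5.56, adjusted p = 0.0177) and on the minus strand (-0.522), for TAP1 without conventional replicate 2 (-0.613, up to 0.786 without another library), in the 250-bp window (-0.0237) and on the plus strand (-0.190), for PSMB8 at the start of the gene (-9.26), for NLRC5 on the minus strand (-2.16) and for the whole gene of HLA-C (6.04). In the pathway list they turned in the 500-bp window for PSME1 (0.868), ERAP1 (0.611) and NFYC (0.389), in the 250-bp window for ERAP1 (1.37), CANX (0.139), RFXAP (0.136), NFYC (0.450) and IFNGR1 (1.35), and at the start of the gene for JAK1 (1.09). The cause was not tested. With each CpG weighted equally, chosen after seeing the data, HLA-F differed by -13.6, HLA-G by -0.514, B2M by 1.97, TAP1 by 1.5 and NLRC5 by 16.4 points.

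The number of tiles tested by minimum calls or with 1 library left out is not given, for the members or for all genes. Those counts therefore have no background share and do not show whether the members differ from other genes. Member tiles numbered 36 lower with at least 5 calls, the higher count there being not given, and 4 lower and 0 higher with at least 20, where fewer tiles were tested. Without 1 library they numbered 10 to 13 lower and 0 to 3 higher, none being higher without conventional replicate 2. With the replicate block 0 of 58 were lower or higher (16 and 5 at an unadjusted p under 0.05), as were 0 of all 115935 tiles (34497 lower and 2384 higher at an unadjusted p under 0.05). Over all genes, 7498 of 18918 promoters were lower in the 500-bp window, 1069 lower and 100 higher of 14361 in the 250-bp window, and 481 of 18328 higher on the plus strand. Tiles numbered 85487 lower and 3283 higher with at least 5 calls, 3985 and 368 with at least 20, and 561 to 1107 higher without 1 library. Classical minus other HLA promoters came to -8.26 points in conventional libraries in the 500-bp window, -5.38 in the 250-bp window, -10.5 without HLA-E and -14.9 without HLA-F, and in reset libraries to 29.9 without HLA-B and 7.28 without HLA-C. Body counts kept within 7 to 8 lower and 0 higher, where 97.8% and 1.11% of all bodies were in the main test. HLA-B had 43 to 88 calls per library in its promoter, the fewest of the members, and the part of depth in its result was not tested.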
